A study of Homo sapiens with 12 samples.

Results

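The integrated stress response and serine synthesis genes described here are 10 genes taken by symbol from the 20042 genes listed in each library, and all 10 held values and passed the filter on low levels. They are the transcription factors ATF4, ATF3 and DDIT3, the stress effectors TRIB3, CHAC1, SESN2 and ASNS, and the serine synthesis enzymes PHGDH, PSAT1 and PSPH. Messenger RNA came from H9, an established human embryonic stem cell line, which was driven toward heart muscle. The 6 groups held 2 libraries each: the vehicle DMSO, 60 µM F-53B and 60 µM PFOS, each collected at day 8 and at day 12. In every group the vehicle or toxicant was in the medium from day 0 of differentiation, so the groups differ in length of exposure as well as in stage. PFOS is a perfluoroalkyl sulfonate, and F-53B carries in addition an ether oxygen in its chain and a chlorine at its end. H9 is a single line, so the values describe 1 genetic background. The labels do not say that replicates were separate cultures, so a p-value reflects only how far these samples spread, and that spread may be technical.

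The integrated stress response is a common answer of cells to endoplasmic reticulum stress, amino acid shortage, haem shortage, viral RNA and mitochondrial faults. Kinases that sense these states phosphorylate the translation initiation factor eIF2, general protein synthesis slows, and the ATF4 message is translated more. ATF4 protein then switches on genes of amino acid supply, among them those for serine synthesis, while DDIT3, also known as CHOP, and TRIB3 belong to the arm that acts under lasting stress. Because ATF4 is controlled largely at translation, its messenger RNA is an incomplete readout of its activity. In developing heart cells serine feeds one-carbon units, nucleotides and glutathione.

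ATF4 binds with C/EBP proteins at a composite site, and the promoters of the 10 genes were searched for it. It is shown for the 3 genes that had a match. Their calls with F-53B differed: CHAC1 rose on both days, ATF3 rose and then fell, and ASNS did not pass the test. The letters TGATGNAA, a common core of the C/EBP-ATF response element, were searched on both strands of RefSeq promoter windows on GRCh38.p14. Each window ran from 250 bases before to 50 bases after an annotated start, 300 bases in all. Of the 10 genes, 9 had windows, 15 in all, and PSPH had no entry. The element was found in ATF3, CHAC1 and ASNS, and over the whole table it was found in 3.62% of 35116 windows and for 4.46% of 27305 genes. Each sequence below reads 5′ to 3′ along the gene, with the matched letters in capitals and 20 bases on either side. In ATF3 the match began 191 bases before the RefSeq start at 212565407, and the printed stretch is chr1:212565196-212565243. In CHAC1 it lay on the opposite strand of the gene, 209 bases before the RefSeq start at 40953471, and the printed stretch is chr15:40953242-40953289. In ASNS, a minus-strand gene, it lay 68 bases before the RefSeq start at 97872408, and the printed stretch is chr7:97872449-97872496. The CHAC1 and ASNS stretches lie inside the GENCODE gene spans given below, which begin further upstream than these RefSeq starts.
ATF3: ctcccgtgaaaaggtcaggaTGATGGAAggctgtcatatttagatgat
CHAC1: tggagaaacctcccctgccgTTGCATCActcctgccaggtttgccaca
ASNS: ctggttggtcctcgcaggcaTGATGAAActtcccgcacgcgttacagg
The cyclic AMP response element TGACGTCA, held by 1.85% of windows, and the endoplasmic reticulum stress response element, held by 0.0769%, were in no window of the 9 genes. A match is a description of letters, and a missing match says only that these letters are not in the window.

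FPKM, fragments scaled by transcript length and by library size, is the deposited unit. Totals ran from 389249 to 439918 FPKM per library and depth is unknown. With F-53B at day 12 the 2 replicates were the least alike: 78 genes with a mean of at least 5 FPKM differed by over 2-fold, against 0 to 20 in the other groups. The cultures also differed in the levels of cell type markers. The summed level of 10 cardiomyocyte markers was 7196 to 9423 FPKM with DMSO, 4091 to 6359 with PFOS and 1238 to 1300 with F-53B at day 8, and 12840 to 12930, 11180 to 11910 and 1294 to 3047 in the same order at day 12. All 10 fell with F-53B on both days; with PFOS limma passed 0, and 1 on each day had an unadjusted p below 0.05. Summed levels of 8 epicardial markers were 454 to 577 FPKM with DMSO, 558 to 623.5 with PFOS and 941 to 976 with F-53B at day 8, and 203 to 207, 312 to 360 and 747 to 958 at day 12. With F-53B 6 of the 8 rose at day 8 and 7 at day 12, and with PFOS 3 and 7. KRT19 alone gave 421 and 343 FPKM of the day 8 DMSO sums and did not pass with PFOS on either day. The 3 that passed with PFOS at day 8 were WT1, TBX18 and TCF21, with log2 changes of 0.73, 1.16 and 0.95. Shares over all genes, for these and the other marker counts, are given below. For 8 endoderm and liver markers the sums in the same order were 59.99 to 116, 42.6 to 55.6 and 29.9 to 33.8 at day 8 and 503 to 709, 196.5 to 278 and 14.7 to 28.5 at day 12. Of the 7 tested, 1 rose and 5 fell with F-53B at day 8 and 7 fell at day 12, and with PFOS 1 fell at day 8 and 3 at day 12. APOA2 and FOXA2 were listed at 0 in both day 8 F-53B libraries. Of 6 endothelial markers, 4 fell with F-53B at day 8, and 5 fell and 1 rose at day 12, while with PFOS 3 fell at day 8 and 1 at day 12. RNA was taken from whole cultures, so fewer cells of a type and less RNA per cell cannot be told apart, and the part of this shift in the results below was not tested.

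With F-53B, PHGDH, TRIB3 and CHAC1 rose and PSPH fell on both days, DDIT3 fell at day 8, and ATF3 rose at day 8 and fell at day 12. At day 8, 6 of the 10 genes rose and 2 fell, where 23.5% of the 14080 genes tested were higher and 20.5% lower. At day 12, 4 rose and 2 fell, beside 28.2% higher and 28.0% lower. PFOS at the same dose passed the test for none of the 10 genes at day 8, where 3.69% of all genes were higher and 3.08% lower. At day 12 it raised PHGDH and lowered ATF3 and ASNS, beside 6.67% higher and 5.62% lower. A gene passed when its limma adjusted p, Benjamini-Hochberg over all genes tested, was below 0.05 in a two-sided test. Log2 changes are on the log2(FPKM + 1) scale and carry the standard error (SE) of the model, whereas a fold is a ratio of mean FPKM.

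**Figure D1:**
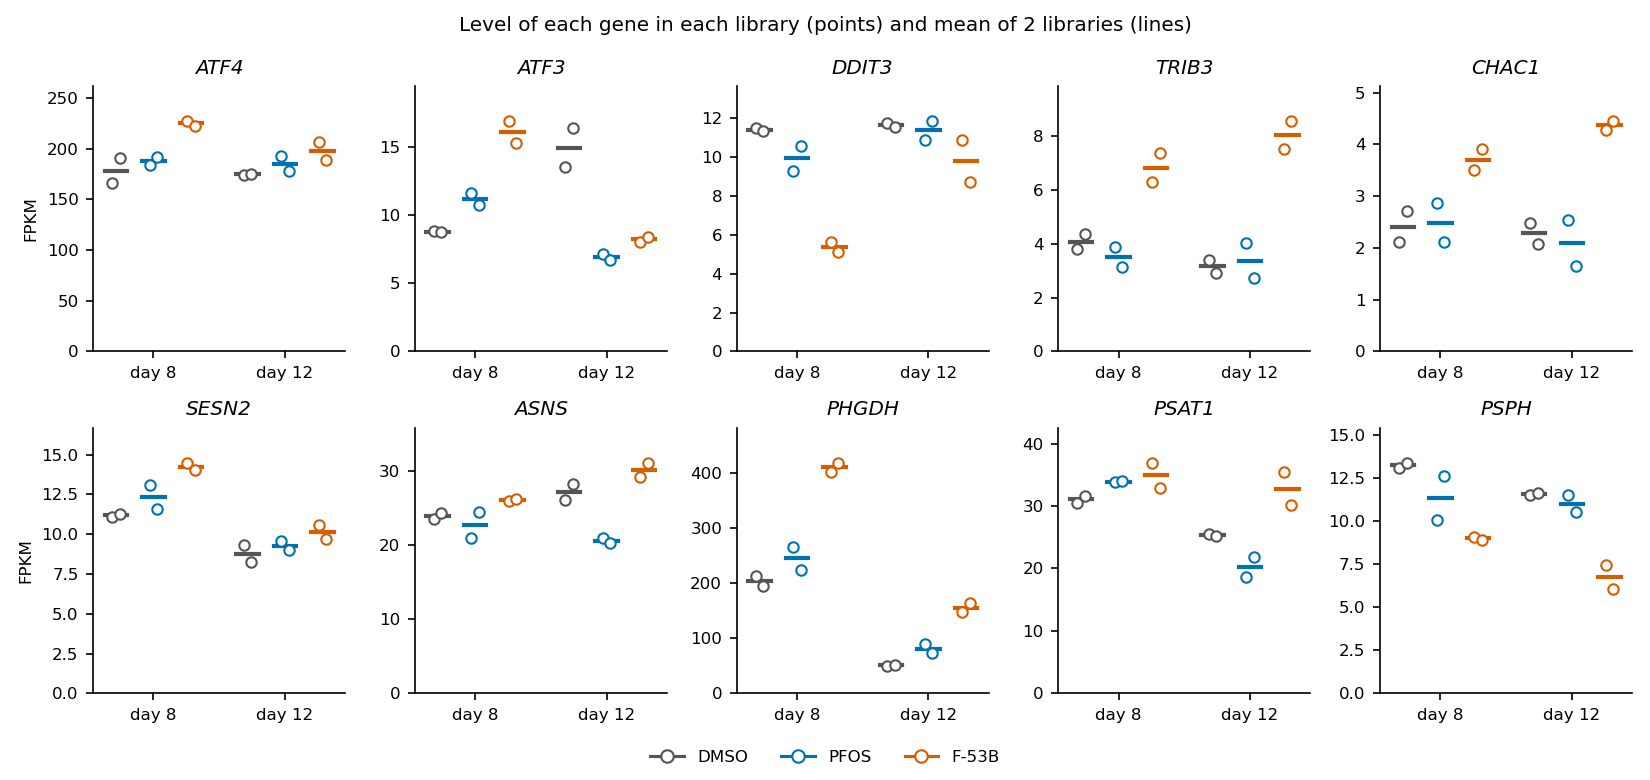
FPKM of each of the 10 genes in every library, by group, 1 panel per gene with a linear axis from 0; each point is 1 library and each line the mean of 2. PHGDH spans from 49.9 to 418 FPKM, while ATF4 stays between 166 and 228.

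ATF4, the central transcription factor of the response, lies on chromosome 22 from 39519695 to 39522685 on the plus strand (gene ID 468). Its level was high in every library. It measured 166 and 191 FPKM with DMSO, 228 and 222 with F-53B and 184 and 192 with PFOS at day 8. At day 12 it measured 174 and 175 with DMSO, 207 and 189 with F-53B and 193 and 178 with PFOS. Only the day 8 F-53B libraries stood clear of all others, and the ranges of neighbouring groups overlapped throughout the rest of the order. ATF4 rose with F-53B at day 8 by a log2 change of 0.34 (SE 0.083, adjusted p = 0.00665), or 1.26-fold. Without the first day 8 DMSO library the adjusted p was 0.0748. At day 12 the difference was 0.17 and did not pass (adjusted p = 0.0944), although with libraries scaled to equal totals it was 0.22 (adjusted p = 0.0291). The PFOS differences were 0.08 on each day. ATF4 has 4 annotated pseudogenes, with which reads could be exchanged.

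ATF3, a stress-induced factor of the same family that mostly represses transcription, lies on chromosome 1 from 212565334 to 212620777 on the plus strand (gene ID 467). At day 8 it stood at 8.81 and 8.73 FPKM with DMSO, 16.9 and 15.3 with F-53B and 11.6 and 10.8 with PFOS. By day 12 the order had turned, with 13.5 and 16.4 for DMSO, 8.05 and 8.39 for F-53B and 7.14 and 6.69 for PFOS. The DMSO libraries were thus the lowest of day 8 and the highest of day 12, with no overlap with the toxicants on either day. F-53B raised ATF3 by 0.81 (SE 0.095, adjusted p = 6.79e-05) at day 8, a 1.84-fold change, and lowered it by a log2 change of -0.78 (SE 0.095, adjusted p = 3.09e-05) at day 12. With PFOS the day 8 difference was 0.32 and did not pass (adjusted p = 0.0675), and the day 12 fall was -1.005 (SE 0.095, adjusted p = 8.54e-05), which left DMSO 2.16-fold above PFOS. In DMSO alone ATF3 rose from day 8 to day 12 by 0.70 (adjusted p = 0.000168). Between the same days its mean went from 16.1 to 8.22 FPKM with F-53B and from 11.2 to 6.92 with PFOS, a time course that was not tested for the toxicants alone.

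DDIT3, the factor linked to cell death under lasting stress, lies on chromosome 12 from 57516588 to 57521737 on the minus strand (gene ID 1649). It was lowest in the day 8 F-53B libraries. There it measured 5.61 and 5.12 FPKM, beside 11.5 and 11.3 with DMSO and 9.29 and 10.6 with PFOS. The day 12 libraries gave 11.75 and 11.5 for DMSO, 10.9 and 8.74 for F-53B and 10.9 and 11.9 for PFOS. F-53B lowered DDIT3 at day 8, with a log2 change of -0.96 (SE 0.10, adjusted p = 3.81e-05), with DMSO 2.13-fold above F-53B, while ATF3 and ATF4 rose in the same libraries. The day 12 difference of -0.23 did not pass (adjusted p = 0.0738). That value rests in part on the first F-53B library, without which it was -0.38 (adjusted p = 0.0116). DDIT3 overlaps MARS and MBD6 on the opposite strand and AC022506.1 and MIR616 on the same strand. Whether counting used strand is not given in the sources used here, so reads of the overlaps cannot be told apart. MARS, named here for its overlap with DDIT3, showed a difference of 0.01 with F-53B at day 8 (adjusted p = 0.966).

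TRIB3, a pseudokinase induced by ATF4 and DDIT3 that damps ATF4 and insulin signalling, lies on chromosome 20 from 362835 to 397559 on the plus strand (gene ID 57761). Its level was low outside the F-53B libraries. Day 8 values were 3.79 and 4.36 FPKM with DMSO, 6.28 and 7.37 with F-53B and 3.89 and 3.14 with PFOS. Day 12 values were 3.41 and 2.90 with DMSO, 7.53 and 8.57 with F-53B and 4.02 and 2.73 with PFOS. All 4 F-53B libraries were above all 8 others. The rise with F-53B was 0.62 (SE 0.15, adjusted p = 0.0057) at day 8, or 1.68-fold, and 1.12 (SE 0.15, adjusted p = 6.44e-05) at day 12, or 2.55-fold. The day 8 call was lost without the second F-53B library (0.52, adjusted p = 0.0576).

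CHAC1, an enzyme that degrades glutathione, lies on chromosome 15 from 40952962 to 40956519 on the plus strand (gene ID 79094) and was, like TRIB3, highest with F-53B. It measured 2.11 and 2.71 FPKM with DMSO, 3.50 and 3.91 with F-53B and 2.86 and 2.12 with PFOS at day 8. The day 12 values were 2.49 and 2.07 with DMSO, 4.28 and 4.46 with F-53B and 2.53 and 1.65 with PFOS. Again the F-53B libraries did not overlap the others. CHAC1 rose by 0.47 (SE 0.16, adjusted p = 0.03) at day 8 and by 0.71 (SE 0.16, adjusted p = 0.0022) at day 12, or 1.54-fold and 1.92-fold. At day 8 the call held without the second DMSO library only, and the adjusted p was 0.183 without the first DMSO library, 0.0658 without the first F-53B library and 0.154 without the second.

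SESN2, a stress sensor that restrains the growth kinase mTORC1, lies on chromosome 1 from 28259527 to 28282491 on the plus strand (gene ID 83667). At day 8 it measured 11.1 and 11.3 FPKM with DMSO, 14.5 and 14.0 with F-53B and 13.1 and 11.6 with PFOS. At day 12 the libraries lay between 8.27 and 10.6, with DMSO at 9.31 and 8.27 and F-53B at 10.6 and 9.70. It rose with F-53B at day 8 by 0.33 (SE 0.086, adjusted p = 0.00979), and without the first F-53B library the value was 0.30 (adjusted p = 0.0656). At day 12 the difference was 0.19 (adjusted p = 0.0813), or 0.23 with libraries scaled to equal totals (adjusted p = 0.0477).

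ASNS, the enzyme that makes asparagine and a standard ATF4 target, lies on chromosome 7 from 97852118 to 97872542 on the minus strand (gene ID 440). It varied by 1.53-fold between its lowest and highest library. Day 8 values were 23.5 and 24.4 FPKM with DMSO, 26.0 and 26.2 with F-53B and 21.0 and 24.4 with PFOS. At day 12 DMSO stood at 26.1 and 28.2, F-53B at 29.2 and 31.15 and PFOS at 21.0 and 20.3. F-53B differences of 0.12 and 0.15 did not pass at day 8 or day 12 (adjusted p = 0.257 and 0.143), and their 95% intervals ran from -0.059 to 0.297 and from -0.031 to 0.325. PFOS lowered ASNS at day 12 by -0.38 (SE 0.081, adjusted p = 0.0114), which without the second DMSO library was -0.33 (adjusted p = 0.122). ASNS has 4 annotated pseudogenes, so its values are less certain.

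PHGDH, which catalyses the first and committed step of serine synthesis from glycolysis, lies on chromosome 1 from 119648411 to 119744226 on the plus strand (gene ID 26227). It spanned the widest range of the 10 genes, 8.39-fold from the lowest to the highest library. At day 8 it measured 212 and 195 FPKM with DMSO, 401 and 418 with F-53B and 266 and 224 with PFOS. At day 12 it measured 49.9 and 51.4 with DMSO, 147 and 163 with F-53B and 89.1 and 72.8 with PFOS. On each day DMSO was lowest, PFOS next and F-53B highest, with no overlap between them. F-53B raised PHGDH by 1.01 (SE 0.11, adjusted p = 4.2e-05) at day 8 and by 1.60 (SE 0.11, adjusted p = 4.56e-07) at day 12, or 2.01-fold and 3.07-fold. PFOS raised it at day 12 by 0.66 (SE 0.11, adjusted p = 0.00271), or 1.60-fold, while the day 8 difference of 0.26 did not pass (adjusted p = 0.177). In DMSO it fell from day 8 to day 12 by -1.99 (SE 0.11, adjusted p = 2.96e-07), a 4.02-fold difference, so the day 12 F-53B libraries lay between the DMSO levels of the 2 days.

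PSAT1, the aminotransferase of the second step, lies on chromosome 9 from 78297143 to 78330093 on the plus strand (gene ID 29968). It measured 30.5 and 31.6 FPKM with DMSO, 36.9 and 32.85 with F-53B and 33.8 and 33.95 with PFOS at day 8. At day 12 the values were 25.5 and 25.1 with DMSO, 35.4 and 30.1 with F-53B and 18.65 and 21.9 with PFOS. The 3 groups of day 12 did not overlap, with F-53B above and PFOS below DMSO. PSAT1 rose with F-53B at day 12 by 0.36 (SE 0.096, adjusted p = 0.00773), and without the first F-53B library the value was 0.24 (adjusted p = 0.0768). The PFOS difference of -0.31 did not pass (adjusted p = 0.0568), but did with equal totals (-0.35, adjusted p = 0.0206), with median-of-ratios scaling (-0.33, adjusted p = 0.0424) and without the second PFOS library (-0.42, adjusted p = 0.0255). At day 8 the F-53B difference was 0.16 (adjusted p = 0.194), or 0.23 with equal totals (adjusted p = 0.0426). PSAT1 has 4 annotated pseudogenes.

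PSPH, the phosphatase that releases serine in the last step, lies on chromosome 7 from 56011051 to 56051604 on the minus strand (gene ID 5723) and moved against PHGDH under F-53B. Day 8 levels were 13.1 and 13.4 FPKM with DMSO, 9.07 and 8.92 with F-53B and 10.1 and 12.6 with PFOS. Day 12 levels were 11.5 and 11.6 with DMSO, 7.44 and 6.04 with F-53B and 11.5 and 10.5 with PFOS. All 4 F-53B libraries were below all 8 others. PSPH fell with F-53B by -0.51 (SE 0.11, adjusted p = 0.00293) at day 8 and by -0.70 (SE 0.11, adjusted p = 2e-04) at day 12, with DMSO 1.47-fold and 1.72-fold above F-53B. With PFOS the differences were -0.21 (adjusted p = 0.266) and -0.07 (adjusted p = 0.74). Its reads could be shared with the named pseudogene PSPHP1.

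**Figure D2:**
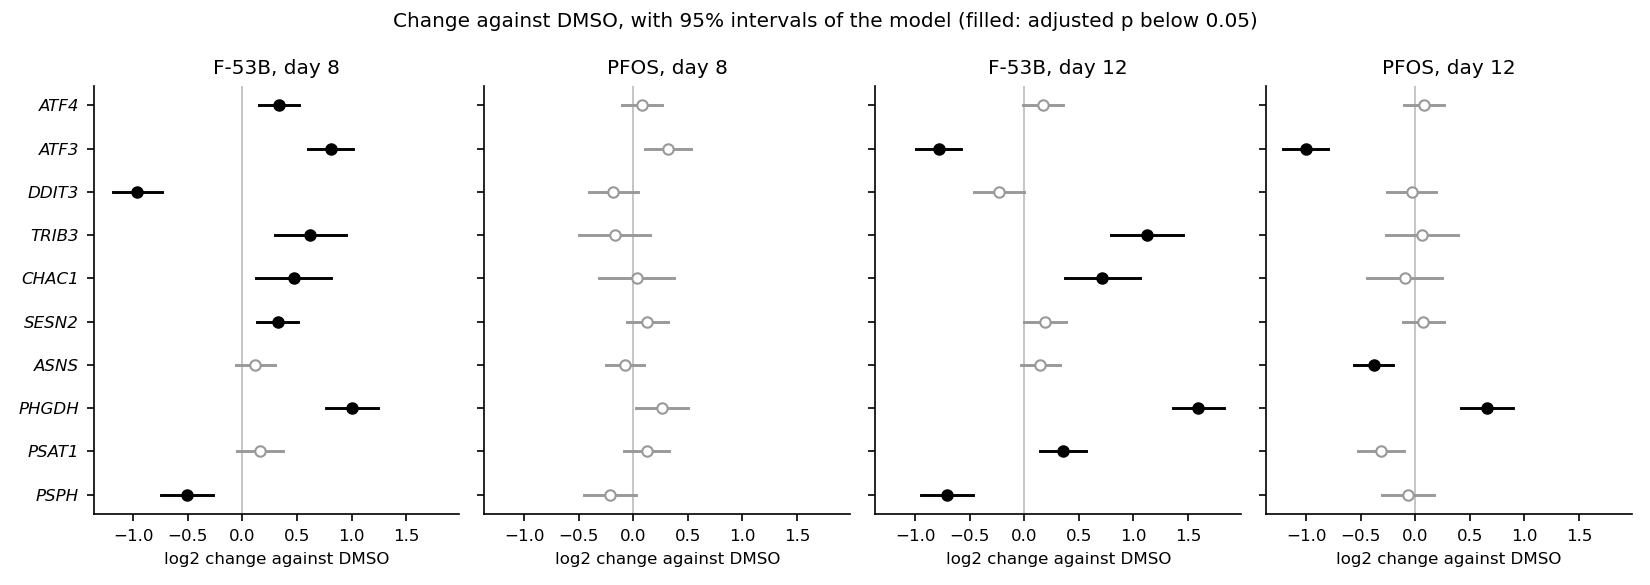
Log2 change of each of the 10 genes against DMSO of the same day on the log2(FPKM + 1) scale, for F-53B and PFOS at day 8 and day 12; bars are 95% intervals of the limma model, and filled points have an adjusted p below 0.05. ATF3 lies at 0.81 with F-53B at day 8 and at -0.78 at day 12, and PHGDH lies above 0 in all 4 comparisons.

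Read as a set, the 10 genes had a median log2 change of 0.33 with F-53B at day 8 and 0.18 at day 12, beside medians of 0.02 and 0.00 over all genes tested. With PFOS the medians were 0.06 and -0.05, beside 0.03 and 0.02. Both toxicants are compared with the same DMSO libraries, so the comparisons of 1 day are not independent. For PFOS at day 8, limma passed 0 of the 10 genes, while 2, ATF3 and PHGDH, had an unadjusted p below the threshold. With F-53B at day 8 the whole table had 3310 genes higher and 2890 lower as deposited and 4100 and 2480 with equal totals. The count of genes over the whole table under PFOS turned on the scaling. At day 8 it was 520 higher and 433 lower as deposited and 411 and 535 with median-of-ratios scaling, and at day 12 it was 939 and 791 as deposited and 683 and 999 with equal totals. Among the 10 genes, leaving out 1 library left 6 to 8 passing with F-53B at day 8, 6 at day 12, and 2 to 4 with PFOS at day 12.

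The 2 compounds were compared directly at 60 µM on each day, which gave 2 comparisons of 1 pair, with p-values adjusted over all genes tested. At day 8, ATF4 (0.26, adjusted p = 0.039), ATF3 (0.49, adjusted p = 0.00396), TRIB3 (0.79, adjusted p = 0.00353) and PHGDH (0.75, adjusted p = 0.00116) were higher with F-53B. DDIT3 was lower with F-53B (-0.78, adjusted p = 0.000872). These are 4 genes higher and 1 lower, where 13.3% of all genes were higher and 15.0% lower. With equal totals 7 were higher and 1 lower, and the whole table moved from 1875 higher and 2116 lower to 2508 and 1725. The ATF4 call was lost without any 1 of the 4 libraries compared, where its adjusted p ran from 0.118 to 0.160. It was also lost with no filter (adjusted p = 0.0525) and with no trend (adjusted p = 0.0542). The day 8 differences that did not pass were 0.44 for CHAC1 (95% interval 0.096 to 0.78), 0.20 for SESN2 (0.0087 to 0.386), 0.20 for ASNS (0.019 to 0.374), 0.04 for PSAT1 (-0.17 to 0.25) and -0.29 for PSPH (-0.533 to -0.056). CHAC1 passed with median-of-ratios scaling (adjusted p = 0.0471), with only the libraries compared (0.0449) and without the first PFOS library (0.59, adjusted p = 0.0359). PSPH passed without that library too (-0.44, adjusted p = 0.0175).

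At day 12 the direct comparison separated TRIB3, CHAC1, ASNS and all 3 serine enzymes. TRIB3 (1.06, adjusted p = 0.00017), CHAC1 (0.81, adjusted p = 0.0013), ASNS (0.53, adjusted p = 0.000302), PHGDH (0.94, adjusted p = 4.84e-05) and PSAT1 (0.67, adjusted p = 0.000195) were higher with F-53B. PSPH was lower (-0.64, adjusted p = 0.000595). This was 5 genes higher and 1 lower, beside 23.9% higher and 24.0% lower over all genes. With equal totals the whole table moved from 3362 higher and 3380 lower to 4110 and 2768. ASNS and PSAT1 stood 1.46-fold and 1.62-fold above PFOS. None of the 6 calls was lost when a library was left out. The transcription factors and SESN2 did not pass at day 12: the differences were 0.09 for ATF4 (95% interval -0.089 to 0.275), 0.22 for ATF3 (0.013 to 0.428), -0.20 for DDIT3 (-0.425 to 0.025) and 0.12 for SESN2 (-0.072 to 0.305). Without the first F-53B library DDIT3 passed (-0.34, adjusted p = 0.0214), and with equal totals ATF3 passed (0.29, adjusted p = 0.0307).

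**Figure D3:**
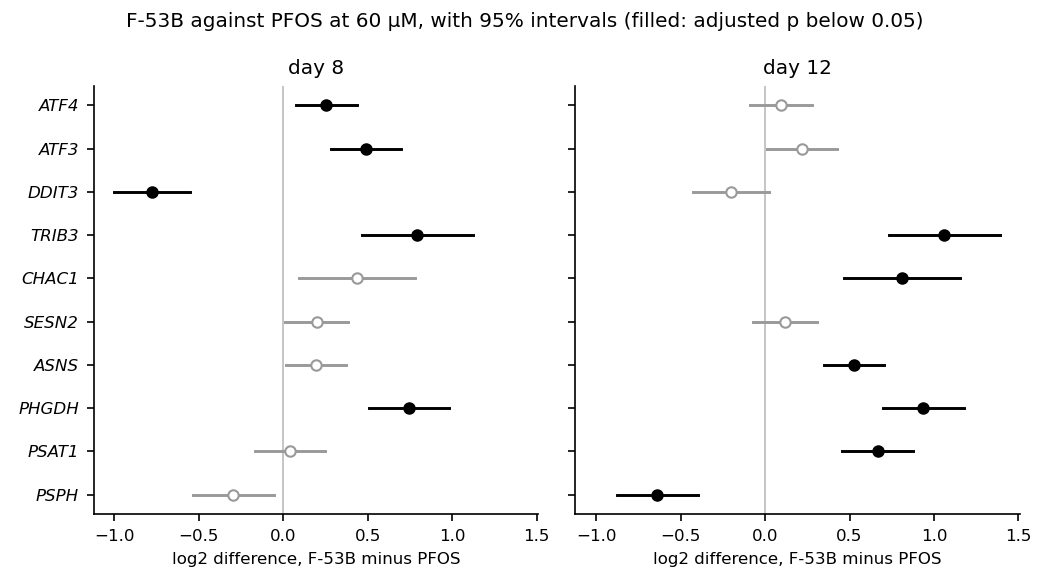
Log2 difference of F-53B from PFOS at day 8 and at day 12 for each of the 10 genes on the log2(FPKM + 1) scale, with 95% intervals of the limma model; filled points have an adjusted p below 0.05. PHGDH and TRIB3 lie to the right of 0 on both days (0.75 and 0.94, 0.79 and 1.06), DDIT3 lies at -0.78 at day 8, and the ATF4 interval at day 12 spans 0.

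In DMSO alone, ATF3 rose between day 8 and day 12 while PHGDH, PSAT1 (-0.29, adjusted p = 0.0355) and SESN2 (-0.32, adjusted p = 0.0134) fell. That is 1 of the 10 higher and 3 lower, where 19.5% of all genes were higher and 18.2% lower. Leaving out 1 DMSO library left 2 or 3 of these calls, and the adjusted p of PSAT1 was between 0.0868 and 0.142 in each such fit. SESN2 did not pass without the first day 8 library (adjusted p = 0.0504), the second (0.0632) or the second day 12 library (0.125). Summed levels of 6 pluripotency markers were 118 to 131 FPKM in day 8 DMSO and 60.3 to 61.4 at day 12. This list did not fall as a whole: of 5 tested, 1 rose, 2 fell and 2 did not pass. Mean LIN28A went from 77.3 to 14.5 FPKM and DPPA4 from 29.4 to 10.1, while TDGF1 went from 13.25 to 32.0. The summed levels of 8 genes of dividing cells were 195 to 201 and 95.3 to 110, and all 8 fell. The part of either list in the fall of PHGDH was not tested.

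The effect of each toxicant was also compared between days. The F-53B effect differed for ATF3, which went from a rise to a fall, for DDIT3, whose fall was seen at day 8, and for PHGDH, whose rise was larger at day 12. These are 3 of the 10 genes, where 16.4% of all genes differed. The PHGDH call was lost without either day 8 F-53B library, either day 12 DMSO library, the first day 8 DMSO library or the second day 12 F-53B library (adjusted p = 0.0569 to 0.0827). The PFOS effect differed for ATF3 alone, with 1.41% of all genes differing. In the whole table that was 86 genes higher and 112 lower, or 71 and 158 with equal totals. The same DMSO libraries enter both toxicants' differences, and the DMSO rise of ATF3 enters both.

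The balance of the 3 serine enzymes is given as ratios of their FPKM within a library, which are ratios of levels per length. PHGDH over PSPH was 16.2 and 14.6 with DMSO, 44.2 and 46.9 with F-53B and 26.4 and 17.8 with PFOS at day 8. By day 12 this ratio came to 4.33 and 4.43 for DMSO, 19.8 and 27.1 for F-53B and 7.75 and 6.92 for PFOS. DMSO was lowest and F-53B highest on each day. PHGDH over PSAT1 ran from 6.16 to 12.7 at day 8 and from 1.96 to 5.42 at day 12, where PFOS, at 4.78 and 3.33, overlapped F-53B, at 4.16 and 5.42. PSAT1 over PSPH was 2.33 and 2.36, 4.07 and 3.68, and 3.36 and 2.70 in the day 8 groups in the same order. At day 12 it was 2.21 and 2.16, 4.75 and 4.99, and 1.62 and 2.08, so that PFOS lay below DMSO there. A ratio shows unequal change of its 2 genes and not which of them changed.

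**Figure D4:**
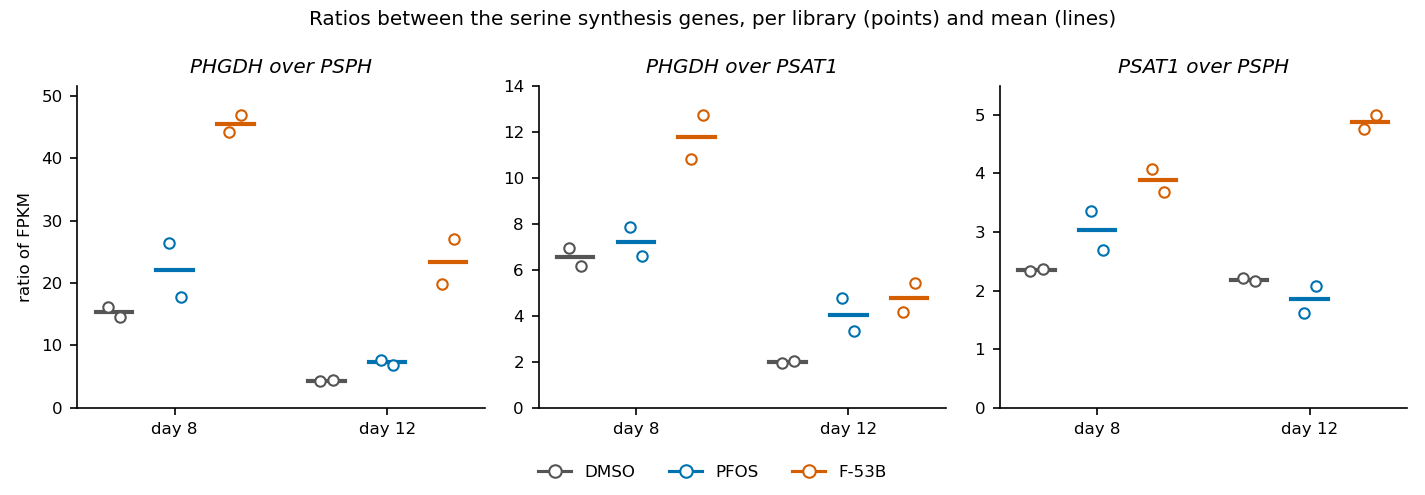
Ratios of FPKM of PHGDH to PSPH, PHGDH to PSAT1 and PSAT1 to PSPH in every library, by group, on linear axes from 0; each point is 1 library and each line the mean of 2. The ratio of PHGDH to PSPH lies between 44.2 and 46.9 in day 8 F-53B and between 4.33 and 4.43 in day 12 DMSO.

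Upstream of ATF4, 16 genes for eIF2 kinases, eIF2 and eIF2B subunits and eIF2 phosphatases were tested. With F-53B, 7 rose and 2 fell at day 8 (median 0.12) and 5 rose and 4 fell at day 12 (median 0.01). Over all genes tested, 23.5% were higher and 20.5% lower at day 8 and 28.2% and 28.0% at day 12, so the day 12 counts lie near that background. With PFOS limma passed 0 on either day, with 2 and 1 at an unadjusted p below 0.05. The PFOS shares over all genes were 3.69% higher and 3.08% lower at day 8 and 6.67% and 5.62% at day 12. PPP1R15A, the stress-induced subunit that removes phosphate from eIF2, rose with F-53B by 0.42 (adjusted p = 0.00121) and 0.51 (adjusted p = 0.000168) at the 2 days. Its level was 48.8 and 44.4 FPKM with DMSO and 61.5 and 63.7 with F-53B at day 8. IMPACT, an inhibitor of the amino acid sensing kinase GCN2, rose by 0.49 (adjusted p = 0.000333) and 0.47 (adjusted p = 0.000225). EIF2B1, a subunit of the exchange factor that eIF2 phosphorylation blocks, rose by 0.34 at day 8 (adjusted p = 0.00205), and EIF2B5, another subunit, fell by -0.54 at day 12 (adjusted p = 0.000616). A count of 0 for PFOS does not show that these genes were unaffected.

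Partners and other targets of ATF4 went in both directions. Of 18 tested, 5 rose and 7 fell with F-53B at day 8 and 6 rose and 6 fell at day 12, with medians of -0.03 and 0.07. The shares over all genes were 23.5% higher and 20.5% lower at day 8 and 28.2% and 28.0% at day 12. The day 12 counts lie near that background and are no result about this list. VLDLR, a lipoprotein receptor induced through the PERK branch, measured 18.5 and 17.4 FPKM with DMSO, 5.86 and 5.47 with F-53B and 11.7 and 13.7 with PFOS at day 8. It fell with F-53B by -1.51 (adjusted p = 2.79e-06) and -0.59 (adjusted p = 0.00016) and with PFOS by -0.47 (adjusted p = 0.00966) and -0.46 (adjusted p = 0.00658). The PFOS calls of VLDLR were lost at day 8 without either DMSO library (adjusted p = 0.0506 and 0.0628) or the first PFOS library (0.108), and at day 12 without the second DMSO library (0.0665). STC2, a secreted glycoprotein of the response, fell by -1.68 at day 8 with F-53B (adjusted p = 0.000228). GADD45A, a growth arrest gene, rose by 0.88 at day 12 with F-53B (adjusted p = 6.02e-06). CDKN1A, the cell cycle inhibitor p21, fell with F-53B on both days (-0.69, adjusted p = 0.00136, and -1.29, adjusted p = 8.29e-06). With PFOS CDKN1A rose at day 8 (0.51, adjusted p = 0.0381) and fell at day 12 (-1.28, adjusted p = 0.000154), and in DMSO it stood at 7.77 and 8.79 FPKM at day 8 and 24.3 and 22.8 at day 12. The PFOS call of CDKN1A at day 8 was lost without any 1 of the 4 libraries compared (adjusted p = 0.0894 to 0.160) and with median-of-ratios scaling (0.0507). Under PFOS, 1 of the list rose and 1 fell at day 8, beside 3.69% higher and 3.08% lower over all genes. At day 12, 0 rose and 5 fell, beside 6.67% higher and 5.62% lower. The largest of these falls was that of GDF15 (-1.65, adjusted p = 1.65e-05), whose mean lay below the 5 FPKM set for naming genes.

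Amino acid transporters of the ATF4 program had calls in both directions. Of 11 tested, 3 rose and 2 fell with F-53B at day 8 and 6 rose and 3 fell at day 12 (medians 0.17 and 0.29), while with PFOS 1 fell at day 8 and 2 at day 12. The day 12 PFOS call of SLC38A1, a glutamine transporter and 1 of those 2, was lost without either DMSO library (adjusted p = 0.102 and 0.138) or the second PFOS library (0.0617). With PFOS the medians of the 11 were -0.135 at day 8 and -0.25 at day 12, beside 0.03 and 0.02 over all genes. An unadjusted p below 0.05 was seen for 3 at day 8 and 9 at day 12, all of them lower. SLC3A2, the heavy chain of the large neutral amino acid exchanger, measured 59.7 and 59.8 FPKM in day 8 DMSO and 94.5 and 85.9 in day 8 F-53B. Its rise was 0.59 (adjusted p = 0.000448) at day 8 and 0.82 (adjusted p = 1.92e-05) at day 12. SLC1A4, a transporter of serine and alanine, rose with F-53B at day 8 by 0.44 (adjusted p = 0.000726) and fell at day 12 by -1.21 (adjusted p = 2.4e-07), from 14.2 and 14.1 FPKM with DMSO to 5.48 and 5.58. SLC7A1, the cationic amino acid transporter, fell in all 4 comparisons, with -0.94 and -1.15 for F-53B and -0.74 and -0.58 for PFOS at day 8 and day 12 (largest adjusted p = 0.00321). Of 20 aminoacyl-tRNA synthetases, the enzymes that load amino acids onto tRNA, 5 rose and 4 fell with F-53B at day 8 and 4 rose and 6 fell at day 12. Over all genes tested, 23.5% were higher and 20.5% lower with F-53B at day 8 and 28.2% and 28.0% at day 12. Counts such as 3 and 2 of 11 or 5 and 4 of 20 lie near that background and are no result about these lists. The PFOS shares over all genes were 3.69% higher and 3.08% lower at day 8 and 6.67% and 5.62% at day 12. With PFOS limma passed 0 synthetases at day 8 (4 at an unadjusted p below 0.05) and 1, HARS, rose at day 12, a call lost without either DMSO library or the first PFOS library (adjusted p = 0.0552 to 0.154). NARS, the synthetase for asparagine, fell with F-53B on both days (-0.50, adjusted p = 0.000277, and -0.77, adjusted p = 5.81e-06).

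Genes that use serine and the carbon units made from it were counted together with those of glycine and proline synthesis. Of 16 tested, 0 rose and 6 fell with F-53B at day 8 (median -0.16), and 1 rose and 10 fell at day 12 (median -0.39). With PFOS 3.08% of all genes were lower at day 8 and 5.62% at day 12. With F-53B 23.5% of all genes were higher and 20.5% lower at day 8, and 28.2% and 28.0% at day 12. MTHFD1L, which releases formate in mitochondria, was at 27.1 and 24.6 FPKM with DMSO and 13.2 and 12.0 with F-53B at day 8 and fell by -0.98 (adjusted p = 8.62e-05). AMT, of the glycine cleavage system, fell by -0.87 (adjusted p = 0.000174) and -1.08 (adjusted p = 1.48e-05) on the 2 days. TYMS, which makes thymidylate with a folate cofactor, fell by -1.07 at day 12 (adjusted p = 1.1e-06), from 40.6 and 47.5 FPKM to 20.9 and 19.8. At day 12, 3 of 8 genes of dividing cells also fell with F-53B, and the summed level of the 8 was 90.2 to 90.5 FPKM beside 95.3 to 110 with DMSO. The median change of the 8 was -0.05, and their part in the fall of TYMS was not tested. GLDC, of the glycine cleavage system, fell with PFOS at day 12 by -1.22 (adjusted p = 7.2e-05), at a mean below the 5 FPKM set for naming genes. MTHFD2, a mitochondrial folate enzyme and ATF4 target, fell with PFOS at day 12 by -0.50 (adjusted p = 0.00468), or by -0.47 without the second DMSO library (adjusted p = 0.0543). It was 1 of 2 genes of the list that fell there, and 1, PYCR1 of proline synthesis, fell with PFOS at day 8, but did not pass when any 1 of the 4 libraries was left out (adjusted p = 0.0527 to 0.215).

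**Figure D5:**
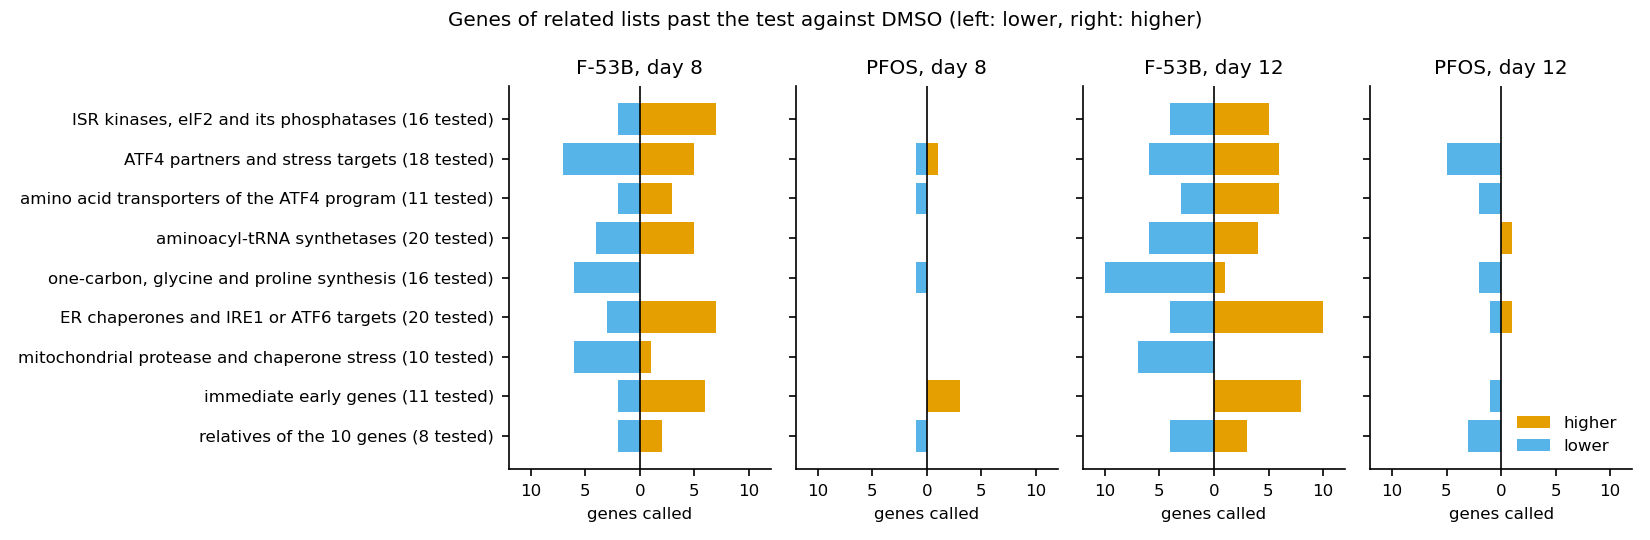
Number of genes of each list that were higher (bars to the right) or lower (bars to the left) than DMSO of the same day at an adjusted p below 0.05, in the 4 comparisons of a toxicant with DMSO. The one-carbon list has 10 lower and 1 higher with F-53B at day 12, and the immediate early genes have 8 higher and 0 lower.

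Chaperones of the endoplasmic reticulum and targets of its sensors IRE1 and ATF6 had 7 of 20 genes higher and 3 lower with F-53B at day 8, and 10 higher and 4 lower at day 12, with a median of 0.15 on each day. Over all genes tested, 23.5% were higher and 20.5% lower with F-53B at day 8, and 28.2% and 28.0% at day 12. CRELD2, a protein induced by endoplasmic reticulum stress, rose by 0.60 (adjusted p = 0.000562) and 0.71 (adjusted p = 8.81e-05), CALR, the calcium-binding chaperone calreticulin, rose by 0.39 at day 8 (adjusted p = 0.000945), and XBP1, the factor spliced by IRE1, fell by -0.67 at day 12 (adjusted p = 6.73e-05). With PFOS limma passed 0 of the list at day 8 (3 at an unadjusted p below 0.05), beside 3.69% higher and 3.08% lower over all genes. At day 12, 1, CRELD2, rose and 1, XBP1, fell with PFOS, beside 6.67% higher and 5.62% lower. Both of these calls were lost without the second DMSO library (adjusted p = 0.106 and 0.12) or the first PFOS library (0.0608 and 0.11), and that of XBP1 also without the first DMSO library (0.11). Of 10 genes for mitochondrial proteases and chaperones, 1 rose and 6 fell with F-53B at day 8 and 0 rose and 7 fell at day 12 (medians -0.30 and -0.43), and limma passed 0 with PFOS, where 4 at day 8 and 0 at day 12 had an unadjusted p below 0.05. HSPD1, the mitochondrial chaperonin, fell by -0.56 (adjusted p = 0.000279) and -0.92 (adjusted p = 3.33e-06). Heart muscle cells are rich in mitochondria, and all 10 cardiomyocyte markers fell in the same comparisons; their part was not tested.

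Immediate early genes, a set to which ATF3 belongs by its kinetics, were tested through 11 of 15 listed genes. With F-53B, 6 rose and 2 fell at day 8 and 8 rose and 0 fell at day 12 (medians 0.46 and 0.59). The shares over all genes were 23.5% higher and 20.5% lower at day 8 and 28.2% and 28.0% at day 12. With PFOS JUN, KLF6 and IER3 rose at day 8, where 3.69% of all genes were higher, and JUND fell at day 12, where 5.62% were lower. Without the first day 8 PFOS library KLF6 (adjusted p = 0.0989) and IER3 (0.224) lost their calls, which of these 3 left JUN. The IER3 call was lost without any 1 of the 4 libraries (adjusted p = 0.108 to 0.224), and that of JUND without the second DMSO library (0.0841). JUN, a partner of ATF3 in the AP-1 factor, measured 13.6 and 10.4 FPKM with DMSO, 38.2 and 42.8 with F-53B and 31.05 and 25.3 with PFOS at day 8. It rose by 1.68 with F-53B (adjusted p = 1.34e-05) and by 1.17 with PFOS (adjusted p = 0.0014) at day 8, and by 0.80 with F-53B at day 12 (adjusted p = 0.000653), when ATF3 fell. KLF6, a zinc finger factor, rose with F-53B by 1.12 (adjusted p = 9.31e-06) and 0.59 (adjusted p = 0.000215). Relatives of the 10 genes moved in both directions: TRIB1, of the TRIB3 family, fell in all 4 comparisons, by -0.78 and -1.15 with F-53B and by -0.41 and -1.08 with PFOS (largest adjusted p = 0.0281). The PFOS day 8 call of TRIB1 was lost without the second DMSO library (adjusted p = 0.232) and without the first PFOS library (0.249). SESN1, of the SESN2 family, fell with F-53B by -0.61 (adjusted p = 0.00138) and -1.12 (adjusted p = 9.1e-06). CREB3L1, a stress-activated factor of the endoplasmic reticulum membrane, rose by 1.06 (adjusted p = 9.08e-05) and 1.42 (adjusted p = 4.17e-06). Over 8 relatives tested, 2 rose and 2 fell with F-53B at day 8 and 3 rose and 4 fell at day 12. Beside the 23.5% higher and 20.5% lower over all genes at day 8, that day's count is no result about the relatives. At day 12 the shares were 28.2% and 28.0%. With PFOS 1 fell at day 8, where 3.08% of all genes were lower. At day 12, where 5.62% were lower, 3 fell with PFOS, namely TRIB1, TRIB2 and CREB3L2. At day 12 TRIB2 and CREB3L2 lost their PFOS calls without the first DMSO library (adjusted p = 0.1425 for each), the second (0.114 and 0.191) or the first PFOS library (0.118 and 0.181), which of the 3 left TRIB1. Without the second PFOS library TRIB2 was lost as well (0.0518).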

How the data were processed

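RNA of 12 libraries, 2 in each of 6 groups by treatment and day, was sequenced on the BGISEQ-500 platform. The values the authors deposited are FPKM, as the file headers say; the submitters' processing notes list HISAT, Bowtie2, RSEM and the build GRCh38 patch p11. From 8 to 10 lines per library that named no gene were dropped, and 1002 listed genes held no value, which left 19040. Values were taken as log2(FPKM + 1) without further scaling. A gene entered the fit when 2 or more libraries reached 1 FPKM (14080 genes), and 1 mean per group was fitted over all 12 libraries with limma 3.58.1 in R 4.3.3, with a mean-variance trend, robust moderation and 6 residual degrees of freedom. Tests were two-sided, with Benjamini-Hochberg adjustment over all genes tested in each of 9 comparisons. The script was tested on simulated data. Depth is unknown, so no counting interval is given. Members and gene lists were chosen with earlier results of these data known. From each list and toxicant comparison, up to 3 genes past the threshold with the smallest adjusted p and a mean of at least 5 FPKM could be named, and the text gives part of them. GDF15 and GLDC, below that mean, are given as the largest PFOS falls of their lists at day 12. Neither was followed under the alternatives. Gene locations are from GENCODE 29 on GRCh38. Promoters are from a RefSeq table on GRCh38.p14. The alternatives tried were another pseudocount, no filter or a stricter one, scaling to equal totals or by median of ratios, no trend, a replicate block, only the libraries compared, and leaving out each library.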

Additional observations from a re-analysis of the deposited data

Results flagged for a closer look

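The effect of a toxicant differed between day 8 and day 12 in 4 cases, by limma's test of the difference itself, adjusted over all genes tested. For ATF3 the F-53B effect at day 12 minus that at day 8 was -1.59 (SE 0.13, adjusted p = 3.03e-05), and the PFOS effect differed by -1.32 (SE 0.13, adjusted p = 0.000863). Both rest on the same DMSO libraries, in which ATF3 rose with time. For DDIT3 the F-53B effect differed by 0.73 (SE 0.15, adjusted p = 0.00559), since its level with F-53B was 5.61 and 5.12 FPKM at day 8 and 10.9 and 8.74 at day 12, while DMSO stayed between 11.3 and 11.75. For PHGDH the F-53B effect differed by 0.59 (SE 0.15, adjusted p = 0.0227), and this call was lost in 6 of the 8 fits that left out 1 library, with adjusted p values up to 0.0827.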

How the results depend on the processing

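Of 1142 values of the 10 genes under the alternatives, 1070 kept their direction and their side of the threshold, 30 lost a call, 16 gained one and 26 changed sign; every value that changed sign was not a call as reported, and the cause was not tested. With libraries scaled to equal totals, 8 of the 10 genes differed between F-53B and PFOS at day 8, while DDIT3 in DMSO over time was -0.002386 and the difference between days of the PFOS effect on ATF4 was -0.0396. Leaving out 1 library gave 2 to 3 calls in DMSO over time. In the same fits the PFOS differences from DMSO at day 8 ran from -0.0193 to 0.181 for ATF4, from -0.123 to 0.184 for CHAC1 and from -0.182 to 0.028 for ASNS. At day 12 they ran from -0.0912 to 0.0266 for DDIT3, from -0.153 to 0.276 for TRIB3, from -0.305 to 0.109 for CHAC1 and from -0.00402 to 0.149 for SESN2. DMSO over time ran from -0.125 to 0.0748 for ATF4 and from -0.181 to 0.0738 for CHAC1, and PSAT1 between the compounds at day 8 from -0.0422 to 0.122. The difference between days of the F-53B effect ran from -0.0262 to 0.0824 for ASNS, and that of the PFOS effect from -0.0992 to 0.101 for ATF4, from -0.336 to 0.078 for CHAC1, from -0.137 to 0.0266 for SESN2 and from -5.696e-05 to 0.297 for PSPH. TRIB3 and CHAC1 have no value under the stricter filter, a mean of at least 5 FPKM. With F-53B at day 8, PHGDH, ATF3, DDIT3 and PSPH passed under every alternative, and at day 12 PHGDH, ATF3, TRIB3, CHAC1 and PSPH did wherever they were fitted.

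The labels do not say whether same-numbered libraries shared a culture or batch. Deviations of same-numbered libraries correlated between -0.378 and 0.186 over 15 pairs of groups, and 3 exceeded 0.1. With 2 libraries a group, such values cannot exclude a shared culture or batch. With the replicate number as a block, 8, 0, 6 and 3 of the 10 genes passed for F-53B and PFOS at day 8 and then at day 12, the same counts as without it. For F-53B against PFOS 4 passed at day 8, where ATF4 had an adjusted p of 0.0559, and 6 at day 12. Depth is unknown, and the low levels of CHAC1 and TRIB3 limit what 2 libraries a group can show for them.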

Other observations

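Over the 12 libraries, the genes whose log2 levels ran most like the mean profile of the 7 stress response genes were NEU1, a lysosomal sialidase (Pearson r = 0.947), EML1 (0.936), AMOTL2 (0.917), RAB8A (0.909) and ZBED4 (0.907), of 9884 genes ranked. NEU1 measured 16.5 and 17.8 FPKM with DMSO and 23.0 and 22.0 with F-53B at day 8. For the 3 serine synthesis genes they were SLC7A3, a cationic amino acid transporter (0.985), LIN28A, an RNA-binding protein of stem cells (0.979), ERVH48-1 (0.978), RASL12 (0.974) and NODAL, a signal of early mesoderm (0.970). LIN28A stood at 70.5 and 84.05 FPKM in day 8 DMSO and 14.55 and 14.45 in day 12 DMSO. Among the 10 genes, PHGDH ran with SESN2 (r = 0.94) and PSAT1 (0.76) but not with PSPH (-0.22), and ATF4 ran opposite to DDIT3 (-0.82). DDIT3 had a negative r with each other stress response gene, the weakest with ASNS (-0.23), and ATF3 with TRIB3 had 0.05. The mean profile of the 7 thus averages genes that ran apart. The libraries fall into 6 groups and share the scaling of each library, so these values describe the groups and carry no test.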
